A study of Homo sapiens with 12 samples.

Results

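Amino acid transporters are the subject here: 9 carrier genes, namely SLC7A5, SLC3A2, SLC1A5, SLC1A4, SLC1A3, SLC38A1, SLC38A2, SLC7A1 and SLC43A2, in EP300-depleted mammary epithelial cells. They were taken by symbol from a count table of 29094 RefSeq rows, in which they hold 11 rows. The cystine carrier SLC7A11 was not counted among them and is described only beside them. Of the 11 rows, 10 passed the filter on low counts that left 13424 rows for testing, and each of the 9 genes kept at least 1 tested row. The row left out is a second SLC1A3 accession (NM_001166696) with 58 counts over all libraries. SLC3A2 kept a second, non-coding accession (NR_037193) with 361 counts over all libraries. Counts of genes below use the row with the most counts for each gene.

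The study sequenced RNA of MCF10AT, a derivative of the human breast epithelial line MCF10A that carries the G12V form of HRas. All 12 libraries come from cells that received a lentiviral shRNA and were then kept in puromycin at 1 µg/ml for 3 days, so the controls carry HRas G12V, a hairpin vector and the selection as well. EP300 KD1 cells express one hairpin against EP300 and NS1 cells a non-silencing hairpin. EP300 KD2 cells express an independent EP300 hairpin and NS2 cells a non-silencing hairpin. There are 3 libraries in each of the 4 groups. Each EP300 hairpin was set against the control of the same number, since the labels speak of corresponding controls. Nothing in the labels ties the 3 libraries of a group to separate cultures. The p-values therefore rest on a spread between libraries that could be purely technical. They name neither clones nor a rescue of EP300.

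EP300 encodes an acetyltransferase that modifies histones and other proteins and acts as a coactivator for many transcription factors. Cells take up amino acids through carriers of the SLC families, which differ in the amino acids they move and in whether they exchange one for another or accumulate them with sodium. SLC7A5 needs the heavy chain SLC3A2 to reach the cell surface, and the pair imports leucine and other large neutral amino acids in exchange for amino acids already inside the cell. SLC1A5 and the SLC38 carriers bring in glutamine and other neutral amino acids, which both feed metabolism and serve as exchange substrates. Several carrier genes are known targets of ATF4, a transcription factor whose translation rises when amino acids are scarce. Raised levels of SLC7A5, SLC3A2 and SLC1A5 are common in tumours.

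Promoter sequences are shown because several carrier genes are known ATF4 targets and the other genes of the ATF4 response are described further on. SLC1A4 and SLC38A1, which are among those printed, were not called lower with the first hairpin. They come from RefSeq (GRCh38.p14), which holds 19 windows for the 9 genes, each covering 250 bases before to 50 after an annotated start. The letters TGATGNAA, the core of the element that ATF4 binds together with a C/EBP protein, were searched on both strands. They occur in 6 of the 9 genes and in 6 of the 19 windows, against 4.46% of 27305 genes and 3.62% of 35116 windows overall. This search was chosen after the windows and the fold changes had been seen, and a match is a description of letters, not a binding site. Each line gives 30 bases in the direction of transcription, with the match in capitals; the lines of SLC1A4 and SLC3A2 show the reverse complement of the letters searched. The window of asparagine synthetase (ASNS), an enzyme gene known as an ATF4 target, is added for comparison. The match begins 37 bases after the annotated start in SLC3A2 and 7 after it in SLC7A1, and before the start in the other lines. In SLC1A4, SLC3A2, SLC38A1 and SLC1A5 that start lies inside the gene span given further on.
SLC1A4 chr2:64989381-64989410 (+): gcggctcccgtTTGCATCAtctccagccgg
SLC1A3 chr5:36596357-36596386 (+): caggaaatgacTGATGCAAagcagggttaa
SLC3A2 chr11:62881719-62881748 (+): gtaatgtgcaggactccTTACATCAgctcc
SLC38A1 chr12:46266502-46266531 (-): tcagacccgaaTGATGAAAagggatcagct
SLC7A1 chr13:29595663-29595692 (-): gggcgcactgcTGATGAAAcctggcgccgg
SLC1A5 chr19:46784893-46784922 (-): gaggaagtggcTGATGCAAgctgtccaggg
ASNS chr7:97872458-97872487 (-): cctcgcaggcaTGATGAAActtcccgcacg

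The windows of SLC7A5, SLC38A2 and SLC43A2 do not hold these letters, which says nothing about sites elsewhere in those genes. The E-box CACGTG, a palindrome recognised by MYC with its partner MAX and by related factors, occurs in windows of 2 of the 9 genes, SLC7A5 and SLC1A5, and in 2 of the 19 windows, against 8.77% of genes and 7.26% of windows overall. In SLC1A5 it lies in the window of another annotated start than the TGATGNAA match, so the matches do not overlap. The 250 bases before the SLC7A5 start are given whole, since SLC7A5 had the lowest mean log2 fold change of the 9 carriers over both hairpins, with the E-box in capitals, followed by the E-box of SLC1A5.
SLC7A5 chr16:87869508-87869757 (-): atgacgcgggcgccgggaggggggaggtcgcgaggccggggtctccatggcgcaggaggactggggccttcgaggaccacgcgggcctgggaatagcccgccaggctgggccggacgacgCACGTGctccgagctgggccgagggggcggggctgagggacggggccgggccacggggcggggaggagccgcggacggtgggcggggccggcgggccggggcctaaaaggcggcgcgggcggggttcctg
SLC1A5 chr19:46787326-46787355 (-): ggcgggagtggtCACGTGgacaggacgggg

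Total counts ran between 31396653 and 45606950 per library, so counting error is small for all carriers except SLC43A2 and SLC1A4. Levels are given in CPM, a gene’s count relative to the TMM-scaled total of its library, and tests are edgeR's quasi-likelihood test with Benjamini-Hochberg adjustment over all 13424 tested rows, with a gene called at an adjusted p under 0.05. EP300 itself was at 107 ± 0.884 CPM in EP300 KD1 and 172 ± 5.11 CPM in NS1 (SD, n = 3 each), or 62.4% of control, and at 95.8 ± 3.87 CPM in EP300 KD2 and 174 ± 8.14 CPM in NS2, or 55.0%. Its log2 fold changes were -0.68 (adjusted p = 2.6e-12) and -0.86 (adjusted p = 1.1e-13). Its close relative CREBBP was not called with either hairpin, with log2 fold changes of -0.03 (adjusted p = 0.445) and -0.06 (adjusted p = 0.0916).

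Transcripts of the leucine importer SLC7A5 and its heavy chain SLC3A2, the glutamine carriers SLC1A5 and SLC38A2, the glutamate carrier SLC1A3 and the arginine and lysine carrier SLC7A1 fell with both EP300 hairpins. SLC7A5 had the largest fall with the first hairpin, to 43.8% of NS1, and SLC1A4 with the second, to 42.5% of NS2. With the first hairpin 6 of the 9 carriers fell, 2 rose and 1 did not pass the test. With the second hairpin 8 of 9 fell, none rose and SLC43A2 did not pass the test. The 9 transcripts together summed to 2727 to 2766 CPM in EP300 KD1 against 3878 to 4114 CPM in NS1, and to 2895 to 2925 CPM in EP300 KD2 against 4599 to 4655 CPM in NS2.

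These counts stand on a large background, as 64.9% of tested rows were called with the first hairpin and 57.8% with the second. Of all tested rows, 32.3% fell and 32.6% rose with the first hairpin, and 29.9% fell and 27.9% rose with the second, so the 2 carriers that rose with the first hairpin are no more than that share. Falling with both hairpins was called for 17.3% of tested rows and for 6 of the 9 carriers, and rising with both for 15.3% of tested rows and none of the carriers. All 3 EP300 KD1 libraries lay below all 3 NS1 libraries for 6 carriers and 33.8% of tested rows, and all 3 EP300 KD2 libraries below all 3 NS2 libraries for 8 carriers and 32.6% of tested rows. When the test asked for a change beyond 1.2-fold, 13.7% of tested rows fell with the first hairpin, among them 5 carriers, and 13.6% with the second, among them 8 carriers. In the other direction 16.2% rose beyond 1.2-fold with the first hairpin, SLC43A2 among the carriers, and 9.86% with the second, none of them a carrier. The median log2 fold change of the 9 carriers was -0.39 with the first hairpin and -0.63 with the second, while the median of all tested rows was -0.01 and 0.00 (-0.006 and -0.002 before rounding). Of the calls with the second hairpin 48.2% were higher calls under TMM, 58% under upper-quartile factors and 61.3% under library totals, and 8 carriers fell under each of these scalings.

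**Figure D1:**
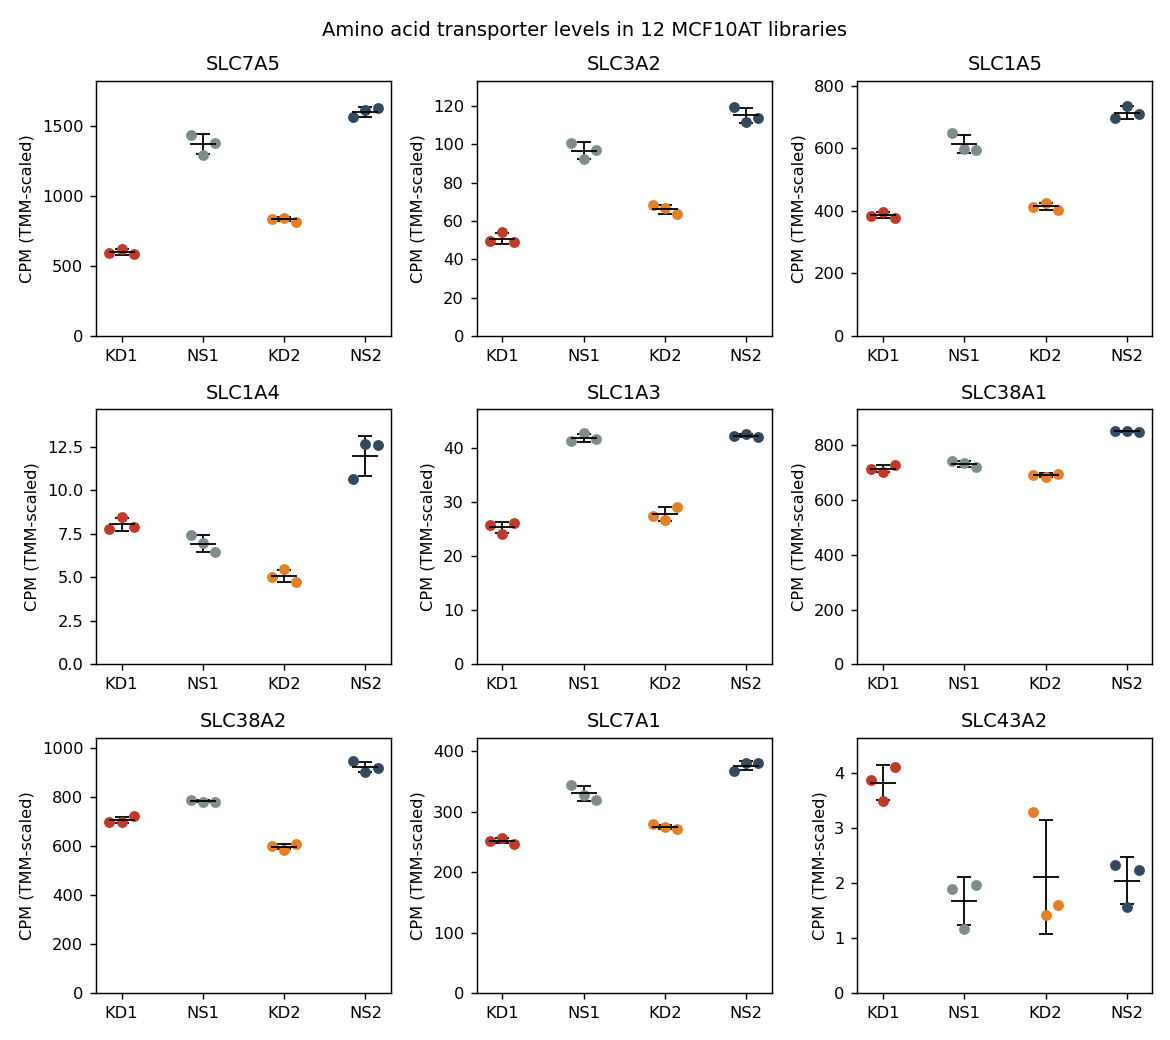
Level of each of the 9 carriers, in TMM-scaled CPM, in every library. Points are the 3 libraries of a group, lines and bars the mean and SD; KD1 and KD2 are the EP300 hairpins, NS1 and NS2 the non-silencing controls. For SLC7A5 the EP300 KD1 points lie between 586 and 623 CPM and all NS1 points at 1296 CPM or above.

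SLC7A5 (NM_003486; hg38 chromosome 16, 87830023 to 87869507) encodes the light chain that carries leucine, isoleucine, phenylalanine and other large neutral amino acids. It was at 592, 623 and 586 CPM in EP300 KD1 libraries, against 1439.7, 1296 and 1377 CPM in NS1 libraries. It was at 836, 846 and 818 CPM in EP300 KD2 libraries, against 1563, 1613 and 1627 CPM in NS2 libraries. The groups of neither pair overlap, and every EP300 KD2 library was above every EP300 KD1 library. On the log2 scale its change was -1.19 (SE 0.0323, adjusted p = 1.75e-16) with the first hairpin and -0.94 (SE 0.032, adjusted p = 6.51e-15) with the second, leaving 43.8% ± 1.47 and 52.0% ± 0.892 of the mean of the control. Of the tested rows, 3.44% had a lower log2 fold change than SLC7A5 with the first hairpin and 5.8% with the second. In bulk RNA, fewer cells that express a carrier and less of its RNA per cell cannot be told apart, here and for the carriers that follow.

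SLC3A2 (NM_002394; chromosome 11, 62856109 to 62888860) encodes the glycoprotein heavy chain that SLC7A5, SLC7A11 and several other light chains pair with. It was at 49.5, 54.2 and 48.9 CPM in EP300 KD1 libraries, against 101, 92.1 and 97.2 CPM in NS1 libraries. It was at 68.2, 66.6 and 63.6 CPM in EP300 KD2 libraries, against 119.6, 112 and 114 CPM in NS2 libraries. As for SLC7A5, the groups of each pair do not overlap and the EP300 KD1 libraries are the lowest of the 12. SLC3A2 had a log2 fold change of -0.93 (SE 0.0427, adjusted p = 5.26e-13) with the first hairpin and -0.80 (SE 0.0408, adjusted p = 3.23e-12) with the second. The non-coding accession averaged 0.515 CPM in EP300 KD1 and 0.975 CPM in NS1, a log2 fold change of -0.95 (adjusted p = 0.00342). It averaged 0.853 CPM in EP300 KD2 and 1.07 CPM in NS2, which did not pass the test (log2 fold change -0.32, adjusted p = 0.259).

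SLC1A5 (NM_001145145; chromosome 19, 46774883 to 46788594), also called ASCT2, is a sodium-dependent exchanger of glutamine and other neutral amino acids. It was at 384, 398 and 379 CPM in EP300 KD1 libraries, against 648, 598 and 594 CPM in NS1 libraries. It was at 413, 426 and 404 CPM in EP300 KD2 libraries, against 696, 737 and 709 CPM in NS2 libraries. No library of an EP300 hairpin reached the level of any control library. SLC1A5 had a log2 fold change of -0.67 (SE 0.0326, adjusted p = 1.3e-12) with the first hairpin and -0.79 (SE 0.0324, adjusted p = 1.32e-13) with the second. SLC1A5, SLC7A5, SLC1A3 and SLC38A2 overlap antisense RNAs annotated in GENCODE. The strand setting of the counting is not given in the sources used here, so the reads of such partners cannot be told apart.

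SLC1A4 (NM_001193493; chromosome 2, 64988479 to 65023865), also called ASCT1, exchanges alanine, serine, cysteine and threonine, and it had the largest log2 difference between the hairpins. It was at 7.80, 8.49 and 7.90 CPM in EP300 KD1 libraries, against 7.41, 6.98 and 6.44 CPM in NS1 libraries. It was at 5.04, 5.47 and 4.75 CPM in EP300 KD2 libraries, against 10.6, 12.7 and 12.6 CPM in NS2 libraries. The EP300 KD1 libraries lie just above the NS1 libraries, and the EP300 KD2 libraries are the lowest and the NS2 libraries the highest of the 12. The fall with the second hairpin had a log2 fold change of -1.23 (SE 0.0881, adjusted p = 4.63e-10), with 3.96% of tested rows lower. The rise with the first hairpin had a log2 fold change of 0.22 (SE 0.0877, adjusted p = 0.0357). That call was lost with DESeq2 (adjusted p = 0.0722), without a filter on low counts (0.0537) and without replicate 2 of NS1 (0.0574), replicate 3 of NS1 (0.157), replicate 2 of EP300 KD1 (0.125) or replicate 3 of EP300 KD1 (0.0545). Against both controls pooled the direction turned, with a log2 fold change of -0.23 (adjusted p = 0.345), while the second hairpin against the pooled controls kept its call (log2 fold change -0.89, adjusted p = 0.0022).

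SLC1A3 (NM_004172; chromosome 5, 36596588 to 36688334), also called GLAST or EAAT1, takes up glutamate and aspartate and is best known from astrocytes. It was at 25.8, 24.1 and 26.2 CPM in EP300 KD1 libraries, against 41.3, 42.8 and 41.7 CPM in NS1 libraries. It was at 27.5, 26.7 and 29.2 CPM in EP300 KD2 libraries, against 42.3, 42.6 and 42.0 CPM in NS2 libraries. The 6 control libraries stand close together, above all 6 EP300 hairpin libraries. SLC1A3 had a log2 fold change of -0.73 (SE 0.0395, adjusted p = 6.58e-12) with the first hairpin and -0.61 (SE 0.039, adjusted p = 9.77e-11) with the second.

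SLC38A1 (NM_001278388; chromosome 12, 46183063 to 46269043) and SLC38A2 (NM_018976; chromosome 12, 46358188 to 46372773), also called SNAT1 and SNAT2, are neighbouring genes that encode sodium-coupled carriers able to accumulate glutamine, alanine and serine. SLC38A1 was at 715, 702 and 729 CPM in EP300 KD1 libraries, against 742, 736 and 721 CPM in NS1 libraries, and was at 693, 683 and 697 CPM in EP300 KD2 libraries, against 853, 854 and 850.4 CPM in NS2 libraries. The first pair of groups overlaps and the second does not. This gave SLC38A1 a log2 fold change of -0.04 with the first hairpin, not called at an adjusted p of 0.145, and -0.30 (SE 0.0208, adjusted p = 2.62e-10) with the second. Against both controls pooled, SLC38A1 was called lower with the first hairpin too (log2 fold change -0.15, adjusted p = 0.0298).

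SLC38A2, a carrier whose transcript is known to rise when cells lack amino acids, was at 697, 696 and 721 CPM in EP300 KD1 libraries, against 788, 777 and 779.8 CPM in NS1 libraries. It was at 601, 583 and 605 CPM in EP300 KD2 libraries, against 944, 902 and 916 CPM in NS2 libraries. Neither pair overlaps, and the gap is much wider in the second pair. SLC38A2 had a log2 fold change of -0.15 (SE 0.0231, adjusted p = 1.39e-05) with the first hairpin and -0.63 (SE 0.0232, adjusted p = 2.44e-14) with the second. The first of these falls, to 90.2% of NS1, was not called beyond 1.2-fold.

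SLC7A1 (NM_003045; chromosome 13, 29509414 to 29595688), also called CAT1, is a carrier of arginine, lysine and ornithine that also serves ecotropic mouse retroviruses as receptor in its mouse form. It was at 252, 256 and 247 CPM in EP300 KD1 libraries, against 344, 327 and 320.2 CPM in NS1 libraries. It was at 279, 274 and 272 CPM in EP300 KD2 libraries, against 368, 381 and 381 CPM in NS2 libraries. All 6 EP300 hairpin libraries lie below all 6 control libraries. SLC7A1 changed on the log2 scale by -0.39 (SE 0.0274, adjusted p = 2.96e-10) with the first hairpin and -0.45 (SE 0.0272, adjusted p = 3.5e-11) with the second.

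SLC43A2 (NM_001284499; chromosome 17, 1569254 to 1630088), also called LAT4, lets branched-chain amino acids, phenylalanine and methionine pass along their gradient without exchange. It had the lowest level of the 9 carriers, per length as well, and was not called lower with either hairpin. It was at 3.88, 3.50 and 4.12 CPM in EP300 KD1 libraries, against 1.897, 1.17 and 1.96 CPM in NS1 libraries. It was at 3.31, 1.43 and 1.60 CPM in EP300 KD2 libraries, against 2.34, 1.56 and 2.24 CPM in NS2 libraries. The EP300 KD1 libraries stand clear above NS1, while 1 of the EP300 KD2 libraries stands above all NS2 libraries and the other two lie near the lowest of them. Its log2 fold change was 1.18 (SE 0.246, adjusted p = 0.000364) with the first hairpin, with 95.4% of tested rows lower. With the second hairpin it was 0.07 (SE 0.256, adjusted p = 0.833), -0.43 (adjusted p = 0.101) without replicate 1 of EP300 KD2 and -0.08 (adjusted p = 0.825) without replicate 2 of NS2. The EP300 KD2 libraries hold 139, 52 and 52 counts of SLC43A2, so this value rests on few reads.

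**Figure D2:**
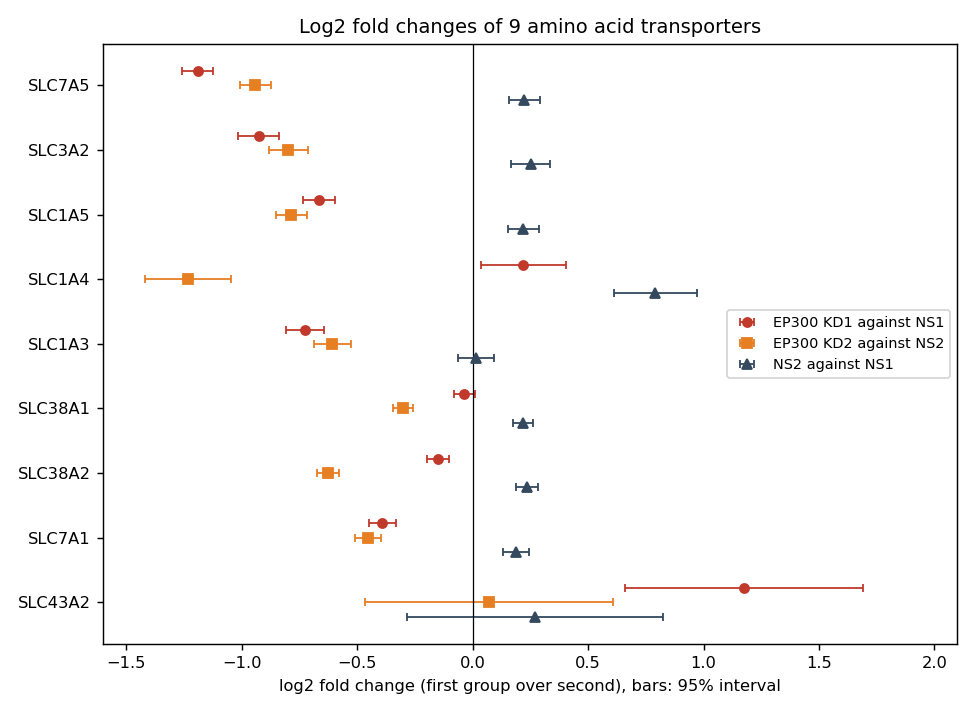
Log2 fold change of each carrier with its 95% interval, from edgeR, for the first hairpin, the second hairpin and NS2 against NS1. The widest intervals are those of SLC43A2, and SLC1A4 lies at 0.22 with the first hairpin and at -1.23 with the second.

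The log2 fold change against the control of the same number differed between the hairpins for some carriers. Hairpin and control cannot be told apart as sources of such a difference. A test of the difference (the log2 fold change of EP300 KD2 against NS2 minus that of EP300 KD1 against NS1) called 5 carriers lower and 1 higher with the second hairpin, where 50.8% of all tested rows were called, 29.2% lower and 21.6% higher. SLC1A4 had a difference of -1.45 (SE 0.124, adjusted p = 1.36e-08), SLC38A2 of -0.48 (SE 0.0327, adjusted p = 6.41e-10) and SLC38A1 of -0.27 (SE 0.0294, adjusted p = 3.97e-07). SLC43A2 had a difference of -1.10 (adjusted p = 0.0147), and of -1.61 (adjusted p = 0.000109) without replicate 1 of EP300 KD2. SLC7A5 went the other way, with a weaker fall with the second hairpin (difference 0.25, SE 0.045, adjusted p = 0.000135). The SLC1A5 difference of -0.12 (adjusted p = 0.0367) lost its call under every other scaling tried, at adjusted p values of 0.0764, 0.125 and 0.364, and at 0.0521 to 0.127 without replicate 2 or 3 of NS1, replicate 2 or 3 of NS2, replicate 2 of EP300 KD1, or replicate 1 or 3 of EP300 KD2. For SLC3A2, SLC1A3 and SLC7A1 no difference passed the test, with 95% intervals of 0.004 to 0.253, 0.001 to 0.235 and -0.144 to 0.018 on the log2 scale, before adjustment. The SLC3A2 and SLC1A3 differences were called, as weaker falls with the second hairpin, under each of the 3 other scalings (adjusted p = 0.0434, 0.0413 and 0.011 for SLC3A2 and 0.0492, 0.028 and 0.00816 for SLC1A3). They were also called without replicate 2 of NS1, replicate 1 of NS2, replicate 2 of EP300 KD1 or replicate 3 of EP300 KD2 for SLC3A2 (0.0132 to 0.0489) and without replicate 2 of EP300 KD2 for SLC1A3 (0.0469), and the SLC7A1 difference was called without replicate 1 of NS1 (-0.09, adjusted p = 0.0449).

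The controls themselves differed. Of the 9 carriers, 7 were higher in NS2 than in NS1 and none was lower, against 14.2% and 13.4% of tested rows. SLC1A4 was at 11.98 ± 1.16 CPM in NS2 and 6.94 ± 0.485 CPM in NS1, a log2 difference of 0.79 (SE 0.0853, adjusted p = 1.32e-06). SLC7A5, SLC3A2, SLC1A5, SLC38A1, SLC38A2 and SLC7A1 had log2 differences between 0.19 and 0.25, each called. SLC1A3 (0.01, adjusted p = 0.832) and SLC43A2 (0.27, adjusted p = 0.501) did not pass the test. NS2 is also the reference of EP300 KD2, so these values and those of the second hairpin share libraries.

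**Figure D3:**
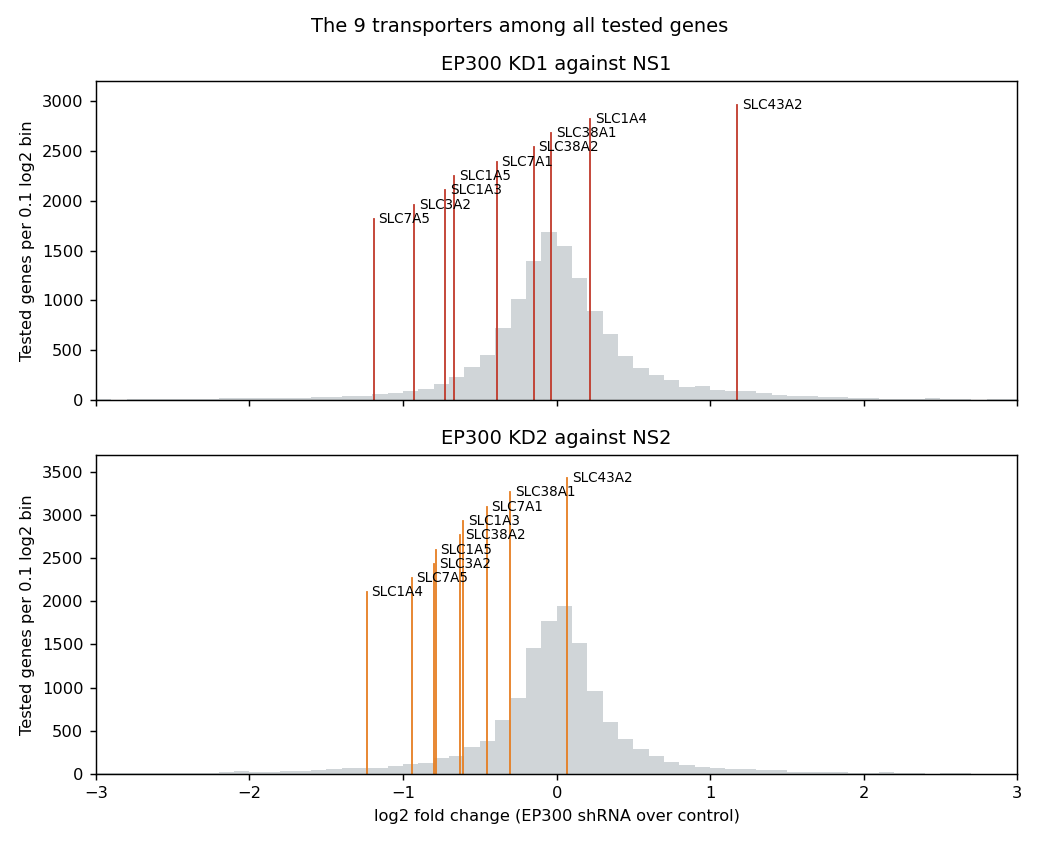
Log2 fold changes of all 13424 tested rows in bins of 0.1, as grey bars, for the first hairpin (above) and the second (below), with the 9 carriers as vertical lines whose heights only space the labels. With the second hairpin 8 of the 9 lines lie below 0; rows beyond -3 or 3 are not drawn.

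Levels of different carriers can be compared only per length. CPM values were divided by the length in kilobases of the GENCODE transcript of each accession or, as the counting feature is not stated, by the length of all exons of the gene. By either length SLC7A5, SLC1A5, SLC38A1 and SLC38A2 took the first 4 places in every group and SLC43A2 the last. SLC7A1 and SLC3A2 came next, then SLC1A3 and SLC1A4. By transcript length SLC38A1 led in EP300 KD1 with 224 ± 4.24 CPM per kilobase, followed by SLC1A5 with 207 ± 5.24, SLC38A2 with 144 ± 2.85 and SLC7A5 with 132 ± 4.43 (SD, n = 3). In NS1 SLC1A5 led with 328 ± 16 CPM per kilobase and SLC7A5 followed with 302 ± 15.9, a gap smaller than the sum of their SDs. In EP300 KD2 the lead was SLC1A5 with 221 ± 5.87 CPM per kilobase beside SLC38A1 with 216 ± 2.22, a gap smaller than the sum of their SDs, and in NS2 it was SLC1A5 with 382 ± 11.1 beside SLC7A5 with 353 ± 7.42. By exon length SLC7A5 came first in all 4 groups, so the order among the first 4 depends on the length chosen. In NS1, SLC7A1 at 45.0 ± 1.67 and SLC3A2 at 44.8 ± 2.03 CPM per kilobase by transcript length also differed by less than their SDs.

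The other amino acid carriers of the plasma membrane did not share one direction. Of 32 listed genes, 11 were tested, of which 3 fell and 6 rose with the first hairpin, against 32.3% and 32.6% of all tested rows. With the second 4 fell and 4 rose, against 29.9% and 27.9%. SLC6A14, a sodium- and chloride-driven carrier of neutral and cationic amino acids, was at 4.98 CPM in EP300 KD1 against 79.6 CPM in NS1 and at 4.05 CPM in EP300 KD2 against 28.9 CPM in NS2, with log2 fold changes of -3.998 (adjusted p = 9.85e-20) and -2.83 (adjusted p = 1.71e-16). SLC7A11, the cystine and glutamate exchanger that also pairs with SLC3A2, was at 86.2 CPM in EP300 KD1 against 199 CPM in NS1 and at 100.1 CPM in EP300 KD2 against 262 CPM in NS2. Its log2 fold changes were -1.21 (adjusted p = 1.06e-16) and -1.39 (adjusted p = 1.31e-17). SLC36A4 rose with both hairpins (log2 fold changes 0.66 and 0.57, adjusted p = 1.1e-11 and 1.93e-10). SLC6A15, a carrier of branched-chain amino acids, rose with the first hairpin (0.56, adjusted p = 1.02e-12) and had a log2 fold change of 0.05 with the second (adjusted p = 0.137). SLC7A2, a relative of SLC7A1 for cationic amino acids, was at 25.3 CPM in EP300 KD2 and 9.59 CPM in NS2 (log2 fold change 1.40, adjusted p = 1.3e-10), and rose with the first hairpin as well (1.07, adjusted p = 1.07e-09). Among 8 tested carriers of lysosomes and vesicles 1 fell and 3 rose with the first hairpin and 2 fell with the second, and among 11 tested mitochondrial carriers 3 rose with the first hairpin while 2 fell and 3 rose with the second.

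Genes of the amino acid response governed by ATF4, other than carriers, mostly fell. Of 26 listed genes 23 were tested, of which 19 fell and 1 rose with the first hairpin, against 32.3% and 32.6% of all tested rows. With the second 21 fell and 2 rose, against 29.9% and 27.9%. The median log2 fold change of these 23 genes was -0.39 with the first hairpin and -1.05 with the second. NUPR1, a small stress-induced chromatin protein, was at 20.9 CPM in EP300 KD1 against 65.8 CPM in NS1 and at 15.2 CPM in EP300 KD2 against 66.7 CPM in NS2 (log2 fold changes -1.65 and -2.14, adjusted p = 5.72e-16 and 3.4e-17). STC2, a secreted glycoprotein, fell with both hairpins (log2 fold changes -0.92 and -1.29, adjusted p = 9.71e-14 and 7.33e-16). DDIT3, which encodes the stress factor CHOP, fell with both (log2 fold changes -1.32 and -1.68, adjusted p = 1.59e-12 and 3.72e-14), as did SESN2, a leucine sensor (-0.84 and -1.05, adjusted p = 1.2e-12 and 4.56e-14). PSAT1, an enzyme of serine synthesis, was at 284 CPM in EP300 KD1 against 409.7 CPM in NS1 and at 282 CPM in EP300 KD2 against 573 CPM in NS2 (log2 fold changes -0.53 and -1.02, adjusted p = 9.24e-11 and 5.11e-15). SHMT2, counted among the genes that fell with both hairpins, was read from a non-coding accession (NR_048562) with group means under 1 CPM. ASNS was at 78.4 CPM in EP300 KD1 against 117 CPM in NS1 and at 71.4 CPM in EP300 KD2 against 188 CPM in NS2 (log2 fold changes -0.58 and -1.40, adjusted p = 1.25e-08 and 2.1e-14). ATF4 itself, singled out after its values were seen, was at 616 CPM in EP300 KD1 against 773 CPM in NS1 and at 596 CPM in EP300 KD2 against 798 CPM in NS2 (log2 fold changes -0.33 and -0.42, adjusted p = 1.7e-10 and 4.99e-12).

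Like the carriers, this list differed between the controls. Among its 23 tested genes 13 were higher in NS2 than in NS1 and none was lower, against 14.2% and 13.4% of all tested rows. ASNS had a log2 difference of 0.69 (adjusted p = 5.99e-09) and TRIB3, a pseudokinase induced by ATF4, of 0.54 (adjusted p = 5.84e-08). The difference between hairpins was -0.82 for ASNS (adjusted p = 2.42e-08) and -0.83 for TRIB3 (adjusted p = 5.66e-09). Both were lower with the second hairpin, as for SLC1A4 and SLC38A2. Hairpin and control cannot be told apart as sources of these differences. In promoter windows, 20 genes of the list could be read, and TGATGNAA was in those of 4 of them, against 4.46% of genes overall. The 4 are ASNS, ATF3, CEBPG and CHAC1, named here for that match. Of 9 kinases and regulators upstream of ATF4, 3 fell and 4 rose with the first hairpin, against 32.3% and 32.6% of all tested rows. With the second 4 fell and 2 rose, against 29.9% and 27.9%. EIF2AK4, the GCN2 kinase that senses uncharged tRNA, rose with both hairpins (log2 fold changes 0.38 and 0.12, adjusted p = 1.59e-09 and 0.00162), and PPP1R15A, a phosphatase subunit that reverses the response, fell with both (-0.44 and -0.50, adjusted p = 2.45e-07 and 5.65e-08).

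The enzymes that load amino acids onto tRNA in the cytosol had smaller median log2 fold changes, -0.19 with the first hairpin and -0.26 with the second. Of 16 tested synthetase genes 10 fell and 1 rose with the first hairpin, against 32.3% and 32.6% of all tested rows. With the second 10 fell and 2 rose, against 29.9% and 27.9%. GARS1, for glycine, was at 330.0 CPM in EP300 KD1 against 429.6 CPM in NS1 and at 312 CPM in EP300 KD2 against 507 CPM in NS2 (log2 fold changes -0.38 and -0.70, adjusted p = 7.91e-09 and 1.06e-12). YARS1, for tyrosine, fell with both hairpins (-0.48 and -0.46, adjusted p = 3.1e-11 and 6.41e-11), as did SARS1, for serine (-0.31 and -0.63, adjusted p = 6.24e-08 and 1.67e-12), and AARS1, for alanine (-0.29 and -0.63, adjusted p = 5.4e-07 and 7.56e-12).

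**Figure D4:**
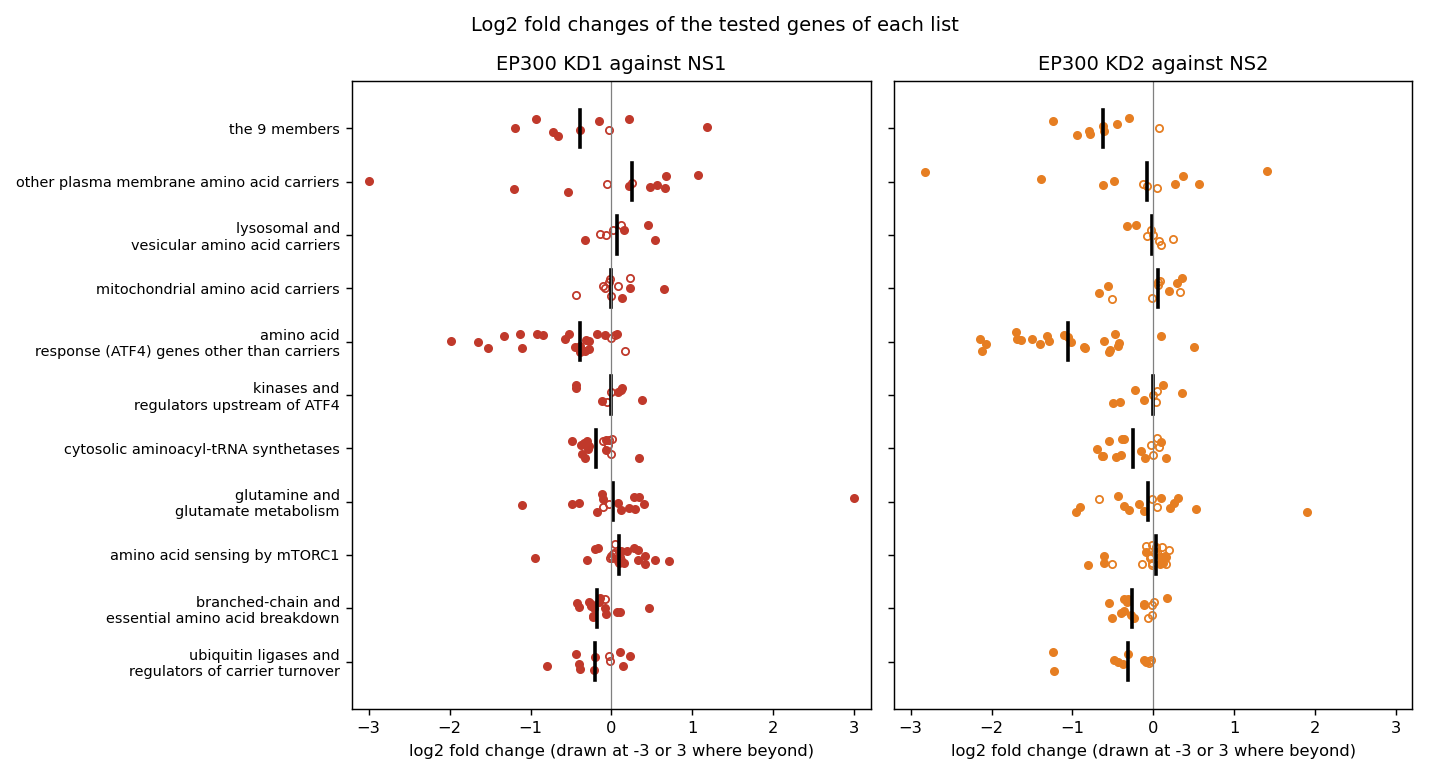
Log2 fold changes of the tested genes of each list for the first hairpin (left) and the second hairpin (right), each gene a point, filled where called, with the list median as a black bar. The medians of the 9 carriers (-0.39 and -0.63) and of the ATF4 response genes (-0.39 and -1.05) lie below 0 in both panels; values beyond -3 or 3 are drawn at that limit.

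Genes with a pattern close to a carrier were sought for the 3 carriers with the largest mean change, as the smallest root mean square difference of centred log2 CPM over the 12 libraries. For SLC7A5 these were TUBE1 (difference 0.0815, log2 fold changes -1.029 and -1.002) and LRATD2 (0.0971). For SLC3A2 they were LRATD2 (0.057, log2 fold changes -0.99 and -0.84) and AJUBA (0.0736, -0.90 and -0.88), and for SLC1A5 they were PRAG1 (0.0538, -0.73 and -0.87) and JDP2 (0.0609, -0.61 and -0.70). About 10607 genes entered each search, and the libraries share their groups, so this is a description only.

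Markers of cell types moved with the groups too. The 8 epithelial markers summed to 3301 to 3403 CPM in EP300 KD1 against 5496 to 5607 CPM in NS1, and to 3157 to 3206 CPM in EP300 KD2 against 6177 to 6258 CPM in NS2. Among these 8, 7 were lower with each hairpin, against 32.3% of all tested rows with the first and 29.9% with the second. The exception, KRT8, was called higher with the first hairpin (log2 fold change 0.595, adjusted p = 0.000461 by edgeR). It was not called with the second (0.07, adjusted p = 0.668). KRT8 was read from a non-coding accession (NR_045962) at 2.20 to 3.32 CPM in the group means. Its row therefore does not stand for the level of the coding transcript. KRT14, among the 7 that fell, had a still lower level, at 0.136 to 1.03 CPM in the group means. The 8 fibroblast markers summed to 117 to 120.4 CPM in EP300 KD1 against 56.9 to 59.6 CPM in NS1, and to 57.5 to 59.3 CPM in EP300 KD2 against 48.8 to 53.2 CPM in NS2, with LUM and COL1A2 at 0 in all libraries. All 5 tested rose with the first hairpin and 3 with the second, against 32.6% and 27.9% of all tested rows. Those 3 were DCN (log2 fold changes 2.565 and 1.25, adjusted p = 4.14e-17 and 5.61e-11 by edgeR), PDGFRA (4.31 and 1.43, adjusted p = 1.04e-14 and 4.26e-06) and COL1A1 (0.86 and 0.30, adjusted p = 2.82e-08 and 0.00645). PDGFRA was at 0.430 CPM in NS1 and 0.411 CPM in NS2. The 6 leukocyte markers summed to 67.2 to 74.2 CPM in EP300 KD1 against 51.8 to 63.0 CPM in NS1, and to 37.8 to 40.1 CPM in EP300 KD2 against 65.3 to 67.2 CPM in NS2, and PTPRC and CD3E were at or near 0. Nearly all of that sum was CD14, which fell with both hairpins (log2 fold changes -0.65 and -1.62, adjusted p = 1.65e-08 and 1.02e-13), and CD68, which rose with both (1.67 and 0.37, adjusted p = 1.68e-13 and 0.000259). The 4 endothelial markers summed to 9.43 to 11.2 CPM in EP300 KD1 against 28.7 to 32.6 CPM in NS1, and to 5.33 to 6.04 CPM in EP300 KD2 against 38.2 to 40.5 CPM in NS2, nearly all of it PECAM1, with CDH5 and VWF near 0. The part of these shifts in the carrier levels was not tested.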

How the data were processed

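RNA was made into stranded mRNA libraries and sequenced, per the labels' protocols. The authors deposited whole-number counts per RefSeq accession, made with HISAT2 2.1.0 on hg38 and featureCounts, per the submitters' processing notes. No annotation release, strand or multi-mapping setting is given in the sources used here. Accessions were matched to symbols with the RefSeq gene table (28130 rows) and GENCODE (490 more); 474 rows, with 0.313% of counts, had no symbol but stayed in the fit. Low rows were removed with filterByExpr, leaving 13424, and edgeR 4.0.16 in R 4.3.3 fitted all 4 groups together (TMM factors, quasi-likelihood F test, Benjamini-Hochberg, threshold 0.05). Alternatives were other scalings and filters, DESeq2 1.42.0, limma-voom 3.58.1, a minimum fold of 1.2, pooled controls, 6-library fits, a replicate block, single accessions and each library left out. The code was tested on simulated data. Genes named from the lists were mainly drawn from the up to 4 called genes with the smallest p per comparison. Not every such gene is named, and some named genes are not among them. Members and lists were chosen with earlier results of these data known. Per-length levels used the GENCODE transcript of the accession or all exons of the gene.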

Additional observations from a re-analysis of the deposited data

Results flagged for a closer look

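For 6 carriers the log2 fold change with the second hairpin differed from that with the first by the test of the difference in edgeR, where 50.8% of all tested rows were called. The difference (EP300 KD2 against NS2 minus EP300 KD1 against NS1) was -1.45 for SLC1A4, -1.10 for SLC43A2, -0.48 for SLC38A2, -0.27 for SLC38A1 and -0.12 for SLC1A5, lower with the second hairpin, and 0.25 for SLC7A5. For SLC1A4, the NS2 level was 173% of the NS1 level. For all 6 carriers, the hairpin and its control cannot be told apart as sources of the difference.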

How the results depend on the processing

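The counts of carriers called lower were 6 with the first hairpin and 8 with the second in each alternative that kept all carriers. Exceptions, both with the first hairpin, were 5 with a minimum fold of 1.2 and 7 against pooled controls. The fit of single accessions left out SLC3A2 and SLC1A3, each called lower with both hairpins, so neither could be called there. The count called higher with the first hairpin (2) was 1 without a filter on low counts, with DESeq2, with a minimum fold of 1.2 and against pooled controls, and 1 to 2 when single libraries were left out. The count called higher in the difference between hairpins (1) was 3 with DESeq2 size factors, upper-quartile factors, library totals and no filter, 2 with the DESeq2 test, 0 with a minimum fold of 1.2 and 1 to 2 without single libraries; the count called lower (5) was 3 with a minimum fold of 1.2, 4 with each other scaling, no filter and the DESeq2 test, and 4 to 6 without single libraries. Of the 7 carriers higher in NS2 than in NS1, 1 was called with a minimum fold of 1.2. Directions reversed for SLC1A4 with the first hairpin against pooled controls (-0.226) and for SLC43A2 with the second (-0.431 to 0.294 over single libraries left out). They also reversed for the SLC7A1 difference between hairpins under library totals (0.005). The same held for SLC1A3 between NS2 and NS1 under upper-quartile factors (-0.004) and library totals (-0.003). The rare SLC3A2 accession came to 0 between NS2 and NS1 without replicate 2 of NS1 (0 to 0.224 over single libraries left out). The causes were not tested. With a replicate block 6 carriers fell with the first hairpin and 8 with the second. Deviations of same-numbered libraries had correlations between -0.04 and 0.026, so no strong shared deviation was seen. With 3 libraries per group, these values cannot decide whether the numbers pair the libraries.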

Other observations

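Other genes of amino acid use were listed beside the carriers. Of 16 genes of glutamine and glutamate metabolism, 6 fell and 8 rose with the first hairpin, against 32.3% and 32.6% of all tested rows. With the second 7 fell and 6 rose, against 29.9% and 27.9%. GFPT2, which uses glutamine to start hexosamine synthesis, was at 54.1 CPM in EP300 KD1 against 3.52 CPM in NS1 and at 28.2 CPM in EP300 KD2 against 7.54 CPM in NS2 (log2 fold changes 3.938 and 1.902, adjusted p = 3.31e-19 and 1.18e-14 by edgeR). GLUL, glutamine synthetase, was at 124 CPM in EP300 KD1 against 267 CPM in NS1 and at 91.9 CPM in EP300 KD2 against 173 CPM in NS2 (log2 fold changes -1.10 and -0.91, adjusted p = 4.93e-17 and 2.06e-15).

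Of 26 tested genes of amino acid sensing by mTORC1, 4 fell and 13 rose with the first hairpin, against 32.3% and 32.6% of all tested rows. With the second 4 fell and 5 rose, against 29.9% and 27.9%, shares that also stand beside the lists below. RRAGC, a Rag GTPase, rose with the first (log2 fold change 0.42, adjusted p = 4.44e-08) and had a log2 fold change of -0.02 with the second (adjusted p = 0.759). TFEB, a lysosomal transcription factor, was at 8.53 CPM in EP300 KD2 against 14.98 CPM in NS2 (-0.81, adjusted p = 1.46e-09) and fell with the first hairpin too (-0.30, adjusted p = 0.000208). Of 16 tested genes of branched-chain and essential amino acid breakdown, 11 fell and 3 rose with the first hairpin and 11 fell and 1 rose with the second. MCCC1 of leucine breakdown fell with both (-0.42 and -0.51, adjusted p = 3.19e-09 and 2.57e-10), while BCKDHA (0.07 and -0.33, adjusted p = 0.0343 and 1.77e-08) and KYNU (0.46 and -0.40, adjusted p = 9.32e-09 and 1.68e-07) rose with the first and fell with the second. Of 11 tested ubiquitin ligases and regulators of carrier turnover, 6 fell and 3 rose with the first hairpin and 8 fell with the second. NEDD4L, a ligase that acts on membrane carriers, fell with both (-0.80 and -0.49, adjusted p = 1.8e-15 and 2.78e-12), and TXNIP, an arrestin relative, rose with the first (0.0997, adjusted p = 0.00714) and fell with the second (-1.24, adjusted p = 6.77e-17).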
